A study of Mus musculus with 6 samples.

Results

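The 8 genes described here encode enzymes of sterol synthesis and the proteins that set how strongly the pathway is transcribed. They are Hmgcs1, Idi1, Fdft1, Sqle and Cyp51 (enzymes), Insig1 (a brake on the pathway) and Srebf1 and Srebf2 (its transcription factors). Each was chosen by its symbol, and the symbols matched 8 of the 54532 genes in the table. Islets of Langerhans, the hormone-secreting part of the pancreas, were taken at an age of 7 weeks, and their poly(A) RNA was sequenced. 3 libraries (bKO) came from mice labelled Ythdc1-betaKO, a beta-cell knockout of Ythdc1, and 3 (control) from mice labelled Ythdc1flox/flox, which carry the floxed allele that the knockout is made from. The labels call the replicates independent and biological. Which promoter drives Cre, and whether other islet cells carry it, is not stated in the labels. YTHDC1 reads N6-methyladenosine marks on RNA in the nucleus, and beta cells make insulin, so the question is what loss of this reader from beta cells changes in the islet transcriptome.

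Cells build cholesterol from acetyl-CoA by way of mevalonate, the isoprenoids and squalene, and the genes of this route are switched on together when sterol in the endoplasmic reticulum is low. SREBP-2 and SREBP-1, the products of Srebf2 and Srebf1, are made as membrane proteins that SCAP escorts to the Golgi, where proteases release the part that enters the nucleus. INSIG proteins hold SCAP back when sterol is plentiful, and Insig1 is itself an SREBP target. In beta cells the cholesterol of the plasma membrane and of the granules is known to bear on insulin secretion.

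Upstream sequences of these genes are shown because most of the 8 moved together and SREBPs act through short DNA motifs near the start site. RefSeq promoters (GRCm38.p6, the build family of the deposited positions) matched 6 of the 8 symbols, and Sqle and Fdft1 did not match. The 250 bases before the RefSeq start are given for Hmgcs1 (chr13:119690101-119690350, plus strand), Idi1 (chr13:8885356-8885605, plus strand), Cyp51 (chr5:4104698-4104947, minus strand), Insig1 (chr5:28071162-28071411, plus strand) and Srebf2 (chr15:82147019-82147268, plus strand). They read 5′ to 3′ on the strand of the gene, with matches to 4 motifs in capitals. The motifs were a sterol regulatory element core (TCACNCCA), an E-box (CACGTG), the NF-Y box (CCAAT) and the GC box bound by Sp1 (GGGCGG), each searched on both strands, and no matches overlapped.
Hmgcs1: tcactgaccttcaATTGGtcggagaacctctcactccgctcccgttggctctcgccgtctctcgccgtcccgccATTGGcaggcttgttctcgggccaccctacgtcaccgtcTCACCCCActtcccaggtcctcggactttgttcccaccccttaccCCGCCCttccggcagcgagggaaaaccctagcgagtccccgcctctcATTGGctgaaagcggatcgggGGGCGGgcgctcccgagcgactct
Idi1: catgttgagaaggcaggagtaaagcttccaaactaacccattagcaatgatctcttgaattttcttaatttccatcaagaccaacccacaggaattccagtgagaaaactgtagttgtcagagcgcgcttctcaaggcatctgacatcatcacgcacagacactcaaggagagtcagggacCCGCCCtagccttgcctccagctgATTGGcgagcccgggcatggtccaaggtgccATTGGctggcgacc
Cyp51: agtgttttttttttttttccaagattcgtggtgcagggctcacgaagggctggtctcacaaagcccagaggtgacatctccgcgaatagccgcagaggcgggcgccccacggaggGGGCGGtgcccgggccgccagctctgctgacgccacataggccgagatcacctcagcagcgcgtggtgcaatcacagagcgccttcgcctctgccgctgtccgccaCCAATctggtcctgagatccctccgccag
Insig1: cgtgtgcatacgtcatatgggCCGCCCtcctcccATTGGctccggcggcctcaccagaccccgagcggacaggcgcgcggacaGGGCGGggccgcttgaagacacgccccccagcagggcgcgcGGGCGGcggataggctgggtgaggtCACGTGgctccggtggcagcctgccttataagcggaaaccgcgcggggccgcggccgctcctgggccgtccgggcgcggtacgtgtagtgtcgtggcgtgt
Srebf2: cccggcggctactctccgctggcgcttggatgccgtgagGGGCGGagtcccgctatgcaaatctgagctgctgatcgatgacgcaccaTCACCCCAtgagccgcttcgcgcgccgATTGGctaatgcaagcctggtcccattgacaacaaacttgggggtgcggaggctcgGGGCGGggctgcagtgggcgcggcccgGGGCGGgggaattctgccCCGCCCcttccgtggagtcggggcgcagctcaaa

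The sterol regulatory element core matched in 2 of the 6 genes, in Hmgcs1 from 137 to 130 and in Srebf2 from 162 to 155 bases before the start. It is held by 3.67% of the 32851 RefSeq promoter windows of this length (4.2% of genes), and its 8 letters were chosen with these windows in view. The E-box matched only in Insig1 of the 6, from 101 to 96 bases before the start, and is held by 6.02% of all windows (6.86% of genes). NF-Y and GC boxes, known partners of SREBP sites, matched in at least 1 window of all 6 genes, against 37.5% and 35.4% of the 27025 genes with a window (33.8% and 32.7% of windows). Srebf1 has 3 windows, of which 1 lacks an NF-Y box and another lacks a GC box. Hmgcs1 held 3 NF-Y boxes and Idi1 held 2. A match is a description of the letters, and an absent match says only that these letters are not in the window. For Idi1, Cyp51, Insig1 and Srebf2 the gene in the deposited table begins 105, 49, 49 and 88 bases before the RefSeq start, so the end of each of these windows lies in annotated transcript.

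Ythdc1 was listed at 3.81, 3.79 and 3.87 FPKM (a read number divided by gene length and by a scale factor of the library) in bKO and at 5.76, 6.46 and 6.18 FPKM in control, lower in every bKO library (log2 fold change -0.56, limma adjusted p = 0.0014). Of the bKO libraries, replicates 2 and 3 carry a description that names Ythdc2 or Ythdc3, although all 3 have Ythdc1-betaKO as genotype. Libraries held 16863329 to 18240339 reads, recovered from the steps between FPKM values. Ins1, Ins2, Gcg and Sst, which encode insulin, glucagon and somatostatin, were abundant in every library. Of 7 beta-cell markers 5 fell and 0 rose, against 11.4% and 8.96% of all genes tested. Across the settings compared below, Mafa, Slc2a2 and Nkx6-1 were called in all 16, Ins1 in 11 of 15 and Ins2 in 6 of 15. Iapp and Pdx1 were not called, and Pdx1 was called higher with libraries scaled by their total reads. The summed level, mostly of Ins1 and Ins2, was 130560 to 139640 FPKM in bKO and 200690 to 222380 FPKM in control.

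In bKO islets 7 of the 8 genes fell, 0 rose, and Fdft1 did not pass the test (limma on log2(FPKM + 1), Benjamini-Hochberg adjusted p under 0.05 over 15717 genes). None of the 8 rose at an unadjusted p under 0.05 or with voom on recovered reads either (0 each). Of all genes tested, 11.4% fell and 8.96% rose, or 20.3% in either direction. In each of the 7 every bKO library lay below every control library, as in 21.6% of all genes tested, with 18.5% the other way round. The falls were largest in Hmgcs1, Cyp51 and Idi1, to 60.0%, 63.1% and 60.9% of the control mean, and smallest in Srebf2 and Sqle, to 86.1% and 85.0%. In whole islets, fewer cells of a type and less RNA per cell cannot be told apart.

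**Figure D1:**
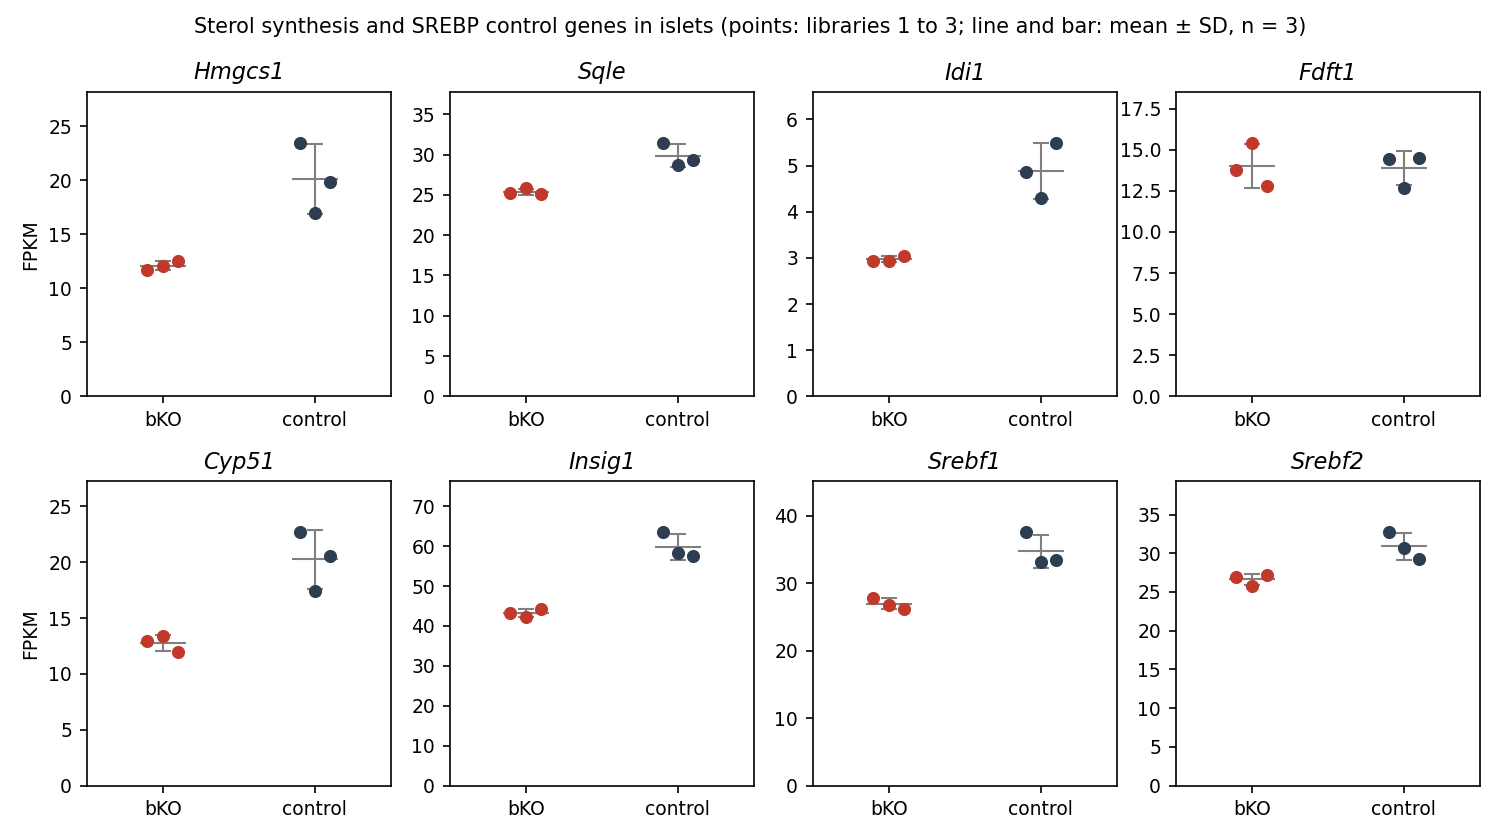
FPKM of each of the 8 genes in the 3 bKO libraries (left, red) and the 3 control libraries (right, dark), with the mean and SD of each group, each axis from 0. The groups are apart in every panel except that of Fdft1, where bKO libraries lie at 12.8 to 15.4 FPKM and control libraries at 12.7 to 14.5 FPKM.

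The deposited values are scaled by size factors, under which the median gene of bKO and control was level (median log2 fold change -0.01). With each library scaled by its total reads the median of all genes moved to 0.13, a shift of 0.14. The share of calls higher in bKO was then 83.3%, against 44.1% with the deposited scaling. On that scale 5 of the 8 genes fell (Hmgcs1, Idi1, Cyp51, Insig1 and Srebf1), against 4.69% of all genes, and 0 rose, against 23.4% (28.1% in either direction). Rescaling multiplies each library by a constant, so log2 fold changes relative to the median gene stay nearly the same by construction. They were -0.67 with the deposited scaling and -0.64 with totals for Hmgcs1, and -0.20 and -0.16 for Srebf2. These values, and those relative to the median given below, do not show which scaling is right.

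Hmgcs1 encodes the cytosolic HMG-CoA synthase, which joins acetoacetyl-CoA and acetyl-CoA at the head of the route (ENSMUSG00000093930, chromosome 13, 119690379 to 119708260, GRCm38). It had 11.7, 12.0 and 12.5 FPKM in bKO, against 23.5, 17.0 and 19.9 FPKM in control. Every bKO library lay below every control library, and the controls were spread more widely than the bKO libraries. The log2 fold change was -0.68 (SE 0.106, limma adjusted p = 0.0062). Its window is 1 of the 2 printed above with the sterol regulatory element core. Of its exonic bases in GENCODE vM21, 557 of 4594 are shared with an antisense gene, Gm48342, at no more than 0.390 FPKM in any library.

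Idi1 encodes isopentenyl-diphosphate isomerase, which interconverts the C5 building blocks of isoprenoids (ENSMUSG00000058258, chromosome 13, 8885501 to 8892451). It was the lowest of the 8, at 2.93, 2.94 and 3.04 FPKM in bKO and 4.85, 4.29 and 5.49 FPKM in control, on 187 to 197 reads in bKO and 259 to 312 reads in control. All bKO libraries were below all controls, and the controls varied most. The log2 fold change of -0.56 (SE 0.084, limma adjusted p = 0.0055) understates the change of a gene this low, and with a pseudocount of 0.1 it was -0.69. Its paralogue Idi2 had at most 0.028 FPKM in any library.

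Fdft1 encodes squalene synthase, which commits farnesyl diphosphate to sterols (ENSMUSG00000021273, chromosome 14, 63145150 to 63179578). It had 13.8, 15.4 and 12.8 FPKM in bKO and 14.4, 12.7 and 14.5 FPKM in control. The groups overlapped throughout, with a log2 fold change of 0.01 (95% interval -0.18 to 0.20, limma adjusted p = 0.94). Within each library, the ratio of Hmgcs1 to Fdft1 was 0.847, 0.781 and 0.977 in bKO and 1.63, 1.34 and 1.37 in control. The ratios did not overlap (two-sided exact permutation p = 0.1, and no lower value is possible with 3 libraries a group). With Hmgcs1 apart between the groups and Fdft1 level, this ratio restates those values and is no further test. In GENCODE vM21, 774 of the 4227 exonic bases of Fdft1 also lie in exons of Ctsb, which is on the other strand and stood at 36.0 FPKM in bKO and 37.8 FPKM in control on average. Whether the counting used strand is not stated in the labels, and the effect of this overlap on Fdft1 was not tested.

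Sqle encodes squalene epoxidase, a control point after squalene (ENSMUSG00000022351, chromosome 15, 59315077 to 59331192). It had 25.2, 25.8 and 25.1 FPKM in bKO, against 31.5, 28.7 and 29.4 FPKM in control. The bKO libraries lay close together and below all controls, which were more spread. The log2 fold change was -0.22 (SE 0.045, limma adjusted p = 0.015). The call was lost with scaling by totals (-0.054, limma adjusted p = 0.34), with quantile normalization (-0.14, limma adjusted p = 0.062), and without bKO replicate 1 or 3 (limma adjusted p = 0.056 and 0.0503).

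Cyp51 encodes lanosterol 14-alpha-demethylase, which removes the first methyl group from lanosterol (ENSMUSG00000001467, chromosome 5, 4081145 to 4104746). It had 12.9, 13.4 and 12.0 FPKM in bKO, against 22.7, 17.5 and 20.6 FPKM in control. All bKO libraries lay below all controls, and the control libraries again differed most among themselves. The log2 fold change was -0.62 (SE 0.094, limma adjusted p = 0.0058). Of its exonic bases, 166 of 4415 are shared with Akap9 on the other strand, at 9.28 FPKM in bKO and 9.48 FPKM in control.

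Insig1 encodes the endoplasmic reticulum protein that retains SCAP (ENSMUSG00000045294, chromosome 5, 28071363 to 28078662). It was the most abundant of the 8 per length, at 43.2, 42.3 and 44.3 FPKM in bKO and 63.5, 58.2 and 57.6 FPKM in control. The groups were far apart relative to their spread, with a log2 fold change of -0.46 (SE 0.048, limma adjusted p = 0.0015, the lowest among the 8). Insig2, its paralogue, fell as well, to 14.0 ± 0.62 FPKM in bKO against 17.0 ± 0.69 FPKM in control (SD, n = 3 each), and the call was lost with scaling by totals. The ratio of Insig1 to Insig2 was 3.25, 2.97 and 3.06 in bKO and 3.76, 3.28 and 3.52 in control, without overlap (two-sided exact permutation p = 0.1).

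Srebf1, the gene of SREBP-1, which mainly drives fatty acid synthesis (ENSMUSG00000020538, chromosome 11, 60199089 to 60222581), had 27.8, 26.8 and 26.2 FPKM in bKO. The control libraries had 37.6, 33.2 and 33.5 FPKM, all above the bKO libraries. Its log2 fold change was -0.35 (SE 0.057, limma adjusted p = 0.0071). The value covers all transcripts of the gene, so SREBP-1a and SREBP-1c, which start at different promoters, were not separated. Srebf1 shares 109 of 5634 exonic bases with Rai1 on the other strand, which rose by 0.19 on the log2 scale. Srebf2, the gene of SREBP-2, the main factor of sterol synthesis (ENSMUSG00000022463, chromosome 15, 82147181 to 82205379), had 26.9, 25.8 and 27.1 FPKM in bKO and 32.7, 30.7 and 29.3 FPKM in control. The groups did not overlap, and the log2 fold change was -0.21 (SE 0.050, limma adjusted p = 0.030). This call held in 7 of 16 settings. It was lost with totals (-0.036, limma adjusted p = 0.59) and without any 1 bKO library or control replicate 1 or 2. The ratio of Srebf1 to Srebf2 was 1.03, 1.04 and 0.966 in bKO and 1.15, 1.08 and 1.14 in control, without overlap (two-sided exact permutation p = 0.1). These are mRNA levels, and cleavage of the proteins was not measured.

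By level per length, the order in bKO was Insig1 (43.3 ± 0.97 FPKM), then Srebf1 (26.9 ± 0.82), Srebf2 (26.6 ± 0.73) and Sqle (25.4 ± 0.37), then Fdft1 (14.0 ± 1.3), Cyp51 (12.8 ± 0.71) and Hmgcs1 (12.1 ± 0.41), and last Idi1 (2.97 ± 0.061). In control it was Insig1 (59.8 ± 3.3 FPKM), Srebf1 (34.7 ± 2.5), Srebf2 (30.9 ± 1.8) and Sqle (29.8 ± 1.4), then Cyp51 (20.2 ± 2.6) and Hmgcs1 (20.1 ± 3.2), then Fdft1 (13.9 ± 1.0) and Idi1 (4.88 ± 0.60), all as SD with n = 3. Library ranges of neighbours overlapped for Srebf1, Srebf2 and Sqle in bKO, for Fdft1, Cyp51 and Hmgcs1 in bKO, and for Srebf2 and Sqle and for Cyp51 and Hmgcs1 in control. Fdft1 thus stood above Hmgcs1 in every bKO library and below it in every control library. The SD was larger in control than in bKO for 7 of the 8 genes, Fdft1 being the exception, against 53.7% of all genes tested. Control replicate 1 was the highest control for 6 of the 8 (34.5% of all genes) and control replicate 2 the lowest for 6 (32.6% of all genes). Without control replicate 1 the log2 fold changes of Hmgcs1 and Cyp51 were -0.57 and -0.54, and without control replicate 2 they were -0.79 and -0.72, called in each case.

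The rest of the sterol route was read from a list of 17 other enzymes, of which 16 were abundant enough to test. 5 fell and 0 rose, against 11.4% and 8.96% of all genes tested. At an unadjusted p under 0.05 or with voom 0 were higher. 16 of 16 log2 fold changes were below 0, as were 8208 of all 15717. Their median was -0.18, against -0.01 for all genes. Lbr, a sterol C14-reductase gene, fell to 5.29 ± 0.50 FPKM in bKO against 7.39 ± 0.40 FPKM in control (log2 fold change -0.42, limma adjusted p = 0.0096). On the log2 scale the C4-methyl oxidase gene Msmo1 fell by 0.27 and Acat2, a cytosolic acetoacetyl-CoA thiolase, by 0.39. Scaling by totals left 3 falls, that of Lbr among them, and 0 rises, against 4.69% and 23.4% of all genes tested. The median was then -0.04, or -0.17 relative to the median of all genes. On that scale Pmvk, Mvd, Ggps1, Tm7sf2, Ebp and Sc5d lay above 0, with log2 fold changes of 0.04 to 0.08, none called. The call of Acat2 was lost without any 1 library, and that of Msmo1 without bKO replicate 1.

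The other 11 tested enzymes did not pass the test. The mevalonate pathway gene Pmvk had 12.6 ± 1.0 FPKM in bKO and 13.5 ± 1.4 FPKM in control (log2 fold change -0.10, 95% interval -0.31 to 0.11), and the isomerase gene Ebp 9.70 ± 0.71 FPKM in bKO and 10.3 ± 1.1 FPKM in control (-0.08, -0.27 to 0.12). Ggps1, which leads to geranylgeranyl diphosphate instead of squalene, had 7.86 ± 0.12 FPKM in bKO and 8.64 ± 0.076 FPKM in control (-0.12, -0.22 to -0.02), and the lathosterol oxidase gene Sc5d 7.62 ± 0.35 FPKM in bKO and 8.31 ± 0.88 FPKM in control (-0.11, -0.29 to 0.08). Fdps was at 0.270 to 0.433 FPKM in bKO and 0.345 to 0.528 FPKM in control, below the filter. A processed pseudogene of it, AC147983.1, is listed at 0 in every library, and how reads that match both were counted is not stated in the labels. Of 12 genes of the isoprenoid branches (prenyltransferases, dolichol and ubiquinone synthesis), 0 rose and 0 fell (limma), against 8.96% and 11.4% of all genes. The median was -0.07. At an unadjusted p under 0.05, 1 was higher and 1 lower, as with voom. With scaling by totals 0 fell and 2 rose, against 4.69% and 23.4% of all genes tested. The median was then 0.08, or -0.05 relative to that of all genes. At the other end of this list Dhdds, a subunit of the dolichol synthase, had 32.7 ± 2.0 FPKM in bKO and 29.5 ± 0.46 FPKM in control (0.14, 95% interval 0.03 to 0.26). Coq2, Nus1 and Fnta had log2 fold changes of -0.06, -0.08 and -0.10, none called.

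**Figure D2:**
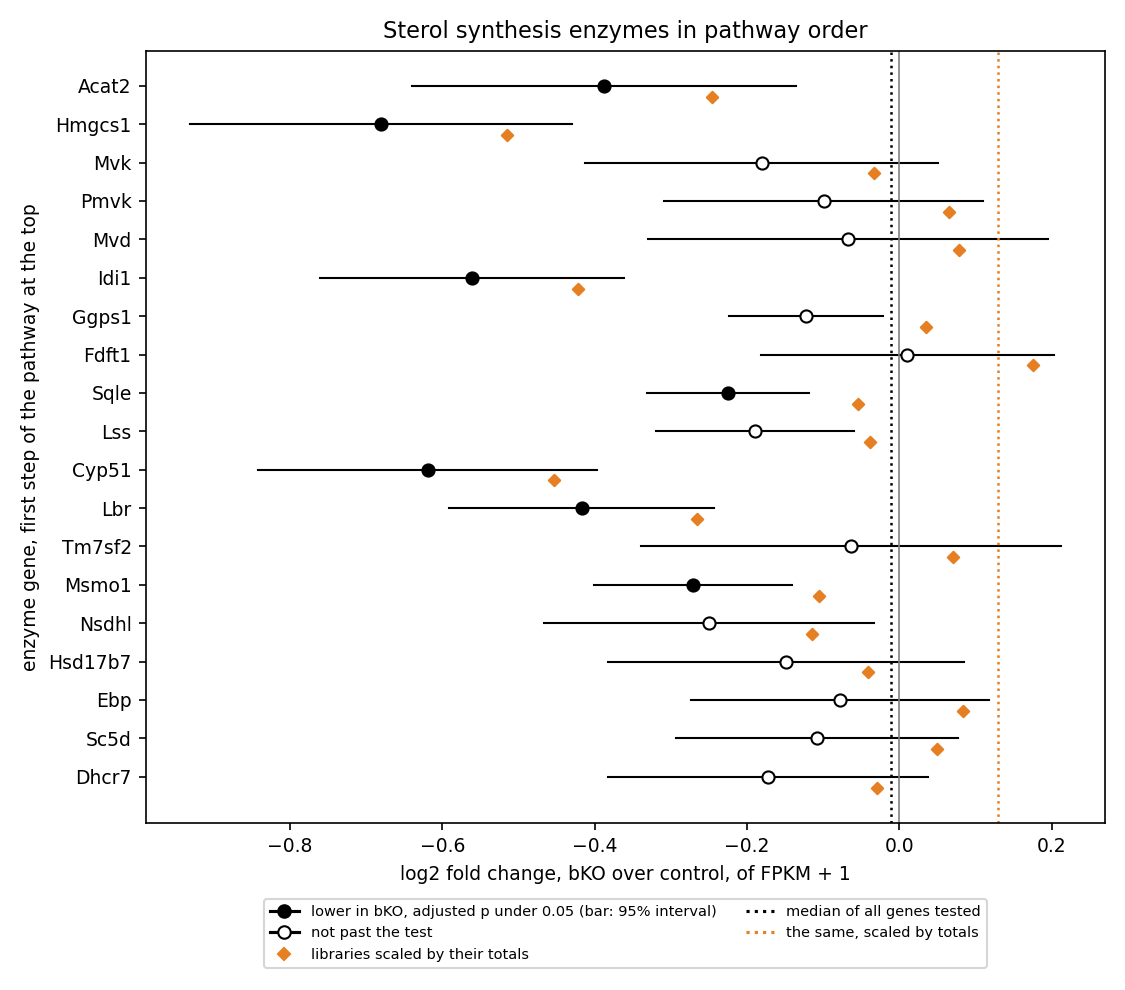
Log2 fold change of FPKM + 1, bKO over control, for 19 sterol enzymes in pathway order from top to bottom, with 95% intervals as bars. Filled points passed the test, and orange diamonds give the values with libraries scaled by their totals, each to be read against the dotted line of its own median gene. Hmgcs1 (-0.68), Cyp51 (-0.62) and Idi1 (-0.56) lie farthest left of those drawn, and Fdft1 (0.01) farthest right.

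Of 11 other genes of SREBP processing, 4 fell and 0 rose, against 11.4% and 8.96% of all genes tested. With scaling by totals 0 fell and 0 rose, against 4.69% and 23.4% of all genes tested. The median turned from -0.14 to 0.03, or -0.10 relative to that of all genes. None was higher at an unadjusted p under 0.05 or with voom (0 each). Beside Insig2, Rnf145, a ubiquitin ligase of the endoplasmic reticulum, fell by 0.26 on the log2 scale, and Mbtps1, the site-1 protease that cuts SREBPs, by 0.17. The call of Mbtps1 held in 7 of 16 settings and was lost without any 1 library. Scap had 12.4 ± 0.46 FPKM in bKO and 12.4 ± 1.3 FPKM in control (log2 fold change 0.00, 95% interval -0.18 to 0.19). Erlin2, another partner of INSIG in the membrane, had 14.8 ± 0.62 FPKM in bKO and 16.4 ± 0.13 FPKM in control (limma adjusted p = 0.066). Ubxn8 (-0.06) and Fbxw7 (0.03) were not called. The ratio of Insig1 to Scap was 3.43 to 3.63 in bKO and 4.63 to 5.26 in control.

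In the list of sterol uptake and transport, 7 of 15 fell and 2 rose, against 2 and 4 with scaling by totals. For all genes tested the shares were 11.4% and 8.96%, against 4.69% and 23.4% with totals. The sterol carrier gene Stard4 fell to 5.68 ± 0.50 FPKM in bKO against 9.09 ± 0.34 FPKM in control (log2 fold change -0.60, limma adjusted p = 0.0020). It is a known SREBP-2 target and stayed called with totals. The reelin and ApoE receptor gene Lrp8 fell by 0.27, the lysosomal cholesterol carrier gene Npc2 by 0.27, Gramd1a by 0.24 and Soat1, which esterifies cholesterol, by 0.36 on the log2 scale, and all 4 lost the call with totals. Lrp8 also lost it without bKO replicate 3, and Soat1 without bKO replicate 1 or 2 or control replicate 1.

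Gramd1b, which carries plasma membrane cholesterol to the endoplasmic reticulum, rose to 4.73 ± 0.092 FPKM in bKO against 2.47 ± 0.097 FPKM in control (log2 fold change 0.72, limma adjusted p = 0.00058), in all 16 settings. Osbp, an oxysterol-binding protein gene, rose by 0.21 on the log2 scale, and its call was lost without any 1 library other than control replicate 2. Vldlr (0.16), Scarb1 (0.10), Stard3 (-0.05) and Gramd1c (-0.12) were not called, and Vldlr was called higher with totals. Among 9 tested genes of LXR signalling and sterol efflux, 1 rose and 0 fell, against 8.96% and 11.4% of all genes tested. At an unadjusted p under 0.05 and with voom 3 were lower and 1 higher. With scaling by totals 3 rose and 0 fell, against 23.4% and 4.69% of all genes tested. The call was that of Mylip, an LXR-induced ubiquitin ligase, at 4.61 ± 0.18 FPKM in bKO and 3.39 ± 0.40 FPKM in control (0.36, limma adjusted p = 0.0235), and the call was lost without any 1 bKO library. The efflux transporter gene Abca1 had 17.8 ± 0.98 FPKM in bKO and 18.7 ± 1.6 FPKM in control (-0.07, 95% interval -0.23 to 0.10). Abcg1 had 13.9 ± 0.34 FPKM in bKO and 16.2 ± 1.4 FPKM in control (-0.20, 95% interval -0.36 to -0.04, limma adjusted p = 0.076). Apoe (-0.02) and Lpcat3 (-0.16) were not called.

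SREBP-1 mainly serves the fatty acid arm. Of its 14 tested genes 8 fell and 1 rose, against 11.4% and 8.96% of all genes tested. The median was -0.42, against -0.01 for all genes. With totals 6 fell and 1 rose, against 4.69% and 23.4% of all genes tested. The median was then -0.26, against 0.13 for all genes. Scd2, a stearoyl-CoA desaturase, fell to 28.7 ± 0.88 FPKM in bKO against 59.7 ± 4.2 FPKM in control (log2 fold change -1.03, limma adjusted p = 0.000195), a larger fall than that of any of the 8 genes. The desaturase gene Fads2 fell by 0.89, its relative Fads1 by 0.37 and the elongase gene Elovl5 by 0.73 on the log2 scale. Fads1 lost the call with totals (limma adjusted p = 0.051). Acly, which makes cytosolic acetyl-CoA from citrate for both fatty acids and sterols, fell to 235.8 ± 3.4 FPKM in bKO against 345.5 ± 23 FPKM in control (-0.55, limma adjusted p = 0.0011). Fasn, fatty acid synthase, fell by 0.48, Scd1 by 0.76 and Me1, the cytosolic malic enzyme, by 0.47. The call of Me1 was lost with totals (limma adjusted p = 0.091) and without bKO replicate 1 or 3 or control replicate 1 or 2. Scd1 was low, at 0.409 to 0.878 FPKM in bKO and 1.69 to 2.09 FPKM in control. Pnpla3, known as an SREBP-1c target in liver, rose, at 1.12 to 2.07 FPKM in bKO and 0.562 to 0.837 FPKM in control (0.60, limma adjusted p = 0.0395), and was called in 9 of 16 settings, not without bKO replicate 1 or 2 or control replicate 1 or 2. Elovl6 had 5.40 ± 0.15 FPKM in bKO and 5.19 ± 0.57 FPKM in control (0.05, 95% interval -0.13 to 0.24), and Gpam, Lpin1 and Acss2 (-0.04, -0.05 and 0.04) were not called either.

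**Figure D3:**
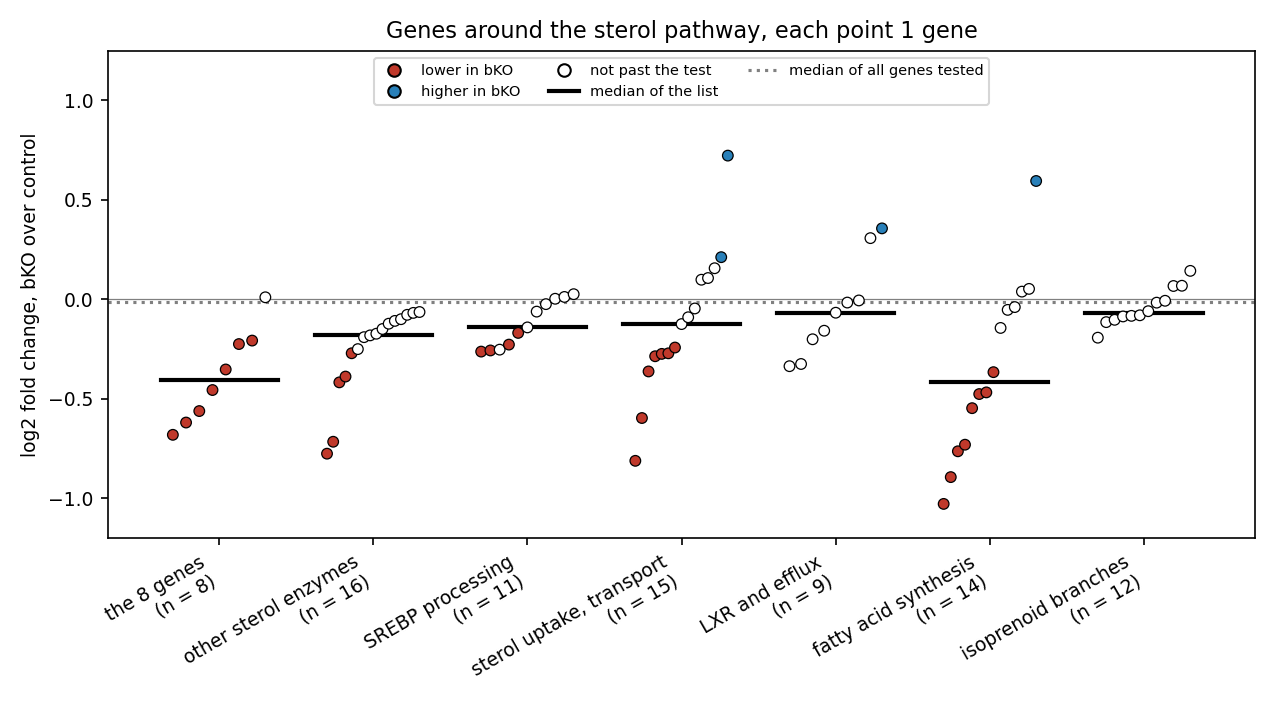
Log2 fold change, bKO over control, of every tested gene (1 point each) in the 8 genes described here and in 6 lists around them, with the list median as a black line and the median of all genes tested dotted. The medians of the 8 genes (-0.40) and of fatty acid synthesis (-0.42) lie lowest, and those of LXR and efflux and of the isoprenoid branches (-0.07 each) lie nearest the dotted line.

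Markers of other cell types in the islet also differed. Of 7 tested macrophage markers 3 fell and 0 rose, against 11.4% and 8.96% of all genes tested. With scaling by totals 2 fell and 0 rose, against 4.69% and 23.4%. C1qb was called in 8 of 16 settings. Log2 fold changes were below 0 in 6 of the 7, Cd68 being the exception (0.13, not called). The summed level of all 8, mostly of C1qa and Ctss, was 64.5 to 80.6 FPKM in bKO and 105.9 to 120.7 FPKM in control. In the lymphocyte list of 4, only Cd79a was high enough to test, and it fell (log2 fold change -1.59), with list sums of 0.719 to 1.65 FPKM in bKO and 4.02 to 6.81 FPKM in control. Cd3e and Ms4a1 were at 0 in all 3 control libraries and in bKO replicate 2.

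Most of the other lists summed higher, while alpha-cell and acinar sums overlapped between the groups. Among all genes tested 8.96% rose and 11.4% fell. Of 6 endothelial markers 4 rose and 0 fell, with sums of 170.8 to 175.6 FPKM in bKO and 132.0 to 153.6 FPKM in control. Of 4 Schwann cell markers Cdh19 and Ngfr rose, and the list summed to 4.47 to 5.43 FPKM in bKO and 2.36 to 3.88 FPKM in control. Of 5 mesenchymal markers Pdgfrb rose, in all 16 settings, with sums of 13.4 to 15.3 FPKM in bKO and 10.3 to 12.7 FPKM in control. The PP-cell hormone genes Ppy and Pyy both rose and summed to 11071 to 14102 FPKM in bKO and 5336 to 7062 FPKM in control. Alpha-cell markers, of which 1 of 5 rose (Irx2), summed to 16772 to 20067 FPKM in bKO and 18420 to 22396 FPKM in control. Acinar markers, of which 1 of 11 rose, summed to 111.1 to 157.3 FPKM in bKO and 56.2 to 183.5 FPKM in control, with overlap. None of 3 delta-cell and 2 tested duct markers was called (limma). Among the delta-cell markers Hhex was higher (log2 fold change 0.33, limma unadjusted p = 0.011) and Rbp4 lower (-0.10, limma unadjusted p = 0.019). Delta-cell markers summed to 5257 to 5277 FPKM in bKO and 4574 to 5038 FPKM in control. All 4 duct markers summed to 12.4 to 13.7 FPKM in bKO and 11.3 to 12.3 FPKM in control. None of the markers in these lists was listed at 0 in all 6 libraries (0 of each list). The part of these shifts, and of the lower beta-cell markers, in the falls of the sterol genes was not tested.

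By profile across the 6 libraries, the protein-coding genes most like the mean of the 5 enzyme genes, among 6949 with a mean of at least 5 FPKM, were Traf6 (Pearson r = 0.998), Hltf (0.994), Zfp180 (0.994), Exoc3 (0.993) and Ddx31 (0.992). All 5 were highest in control replicate 1 or 3 and lower in control replicate 2, as the enzyme mean was. They were picked by this profile, so that likeness follows from the choice. Ddx31 fell by 0.57 on the log2 scale, while the other 4 had adjusted p of 0.066 to 0.12 (limma) and changes of -0.19 to -0.13. The pathway gene nearest this profile was Msmo1, ranked 45 (r = 0.971), followed by Fads1, ranked 59 (r = 0.967). The r values are a description of 6 libraries from 2 groups that share the difference between them. The enzyme mean weights the 5 standardized genes equally, so Fdft1, which did not fall, counts as much as each of the others.

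**Figure D4:**
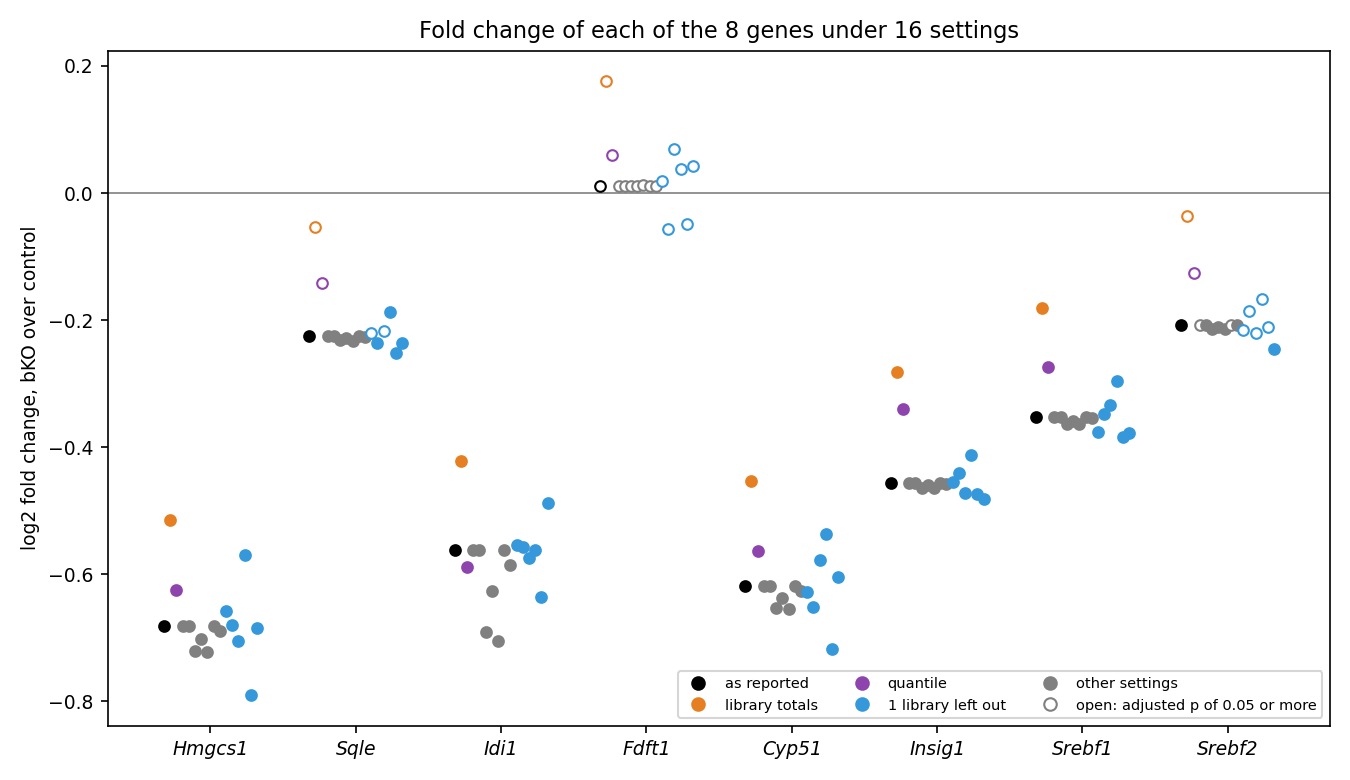
Log2 fold change, bKO over control, of each of the 8 genes under 16 settings, with filled points where the limma adjusted p was under 0.05 and open points where it was not. Hmgcs1, Idi1, Cyp51, Insig1 and Srebf1 are filled throughout, Sqle in 12 and Srebf2 in 7 settings, and scaling by library totals (orange) gives the highest value for each gene.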

How the data were processed

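Poly(A)-selected RNA of 6 islet libraries was sequenced. Per the labels, the authors aligned reads to GRCm38 with HISAT2 2.0.5 and counted them with featureCounts 1.5.0-p3, and the submitters' processing notes also name CASAVA and DESeq2 1.20.0 with no role. The deposited table holds FPKM. Every nonzero value times gene length was a whole multiple of 1 step per library (tolerance 0.01), so reads were recovered. The steps follow median-of-ratios size factors (0.923 to 1.10). 0 columns belonged to other samples.

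limma 3.58.1 (R 4.3.3), with the mean-variance trend, was fitted to log2(FPKM + 1) of genes with at least 0.5 FPKM in at least 3 libraries, bKO against control, with no covariate. Benjamini-Hochberg adjustment ran over all 15717 genes tested. Fold changes on this scale understate those of low genes. The fit was checked on simulated reads. Genes named were the 8, Ythdc1, every called gene of the lists and up to 4 uncalled genes a list, the most abundant, and the 5 genes most like the enzyme mean. Some genes that this rule took are not reported here, and list counts and medians include them. The 8 genes, the lists and the rules were chosen with earlier results of these data known. Intervals are limma's 95% intervals. Reads of replicate libraries differed beyond counting noise (chi-square over its degrees of freedom 3.87 to 6.05), and each library counts as 1 sample. Counting error was not modelled separately. Tables and figures were made with scipy 1.17.1, pandas 2.3.3, numpy 2.4.6 and matplotlib 3.10.9 on Python 3.11.15. Alternatives were scaling by totals, quantile normalization, other filters and pseudocounts, voom on recovered reads, a replicate block, removal of insulin and exocrine genes, and removal of each library.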

Additional observations from a re-analysis of the deposited data

How the results depend on the processing

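Across 15 alternatives, Hmgcs1, Idi1, Cyp51, Insig1 and Srebf1 stayed lower and called in each, and the number of the 8 genes called lower was 5 to 7. The numbers of all genes higher and lower, 1408 and 1784, were 3684 and 737 with scaling by totals. They were 925 and 1152 with the replicate number as a block, and 852 to 1179 and 1037 to 1604 with 1 library left out, the lowest without bKO replicate 1 and control replicate 1. Srebf2 at -0.21 was no longer called with totals (-0.036), quantile normalization (-0.13), no filter (-0.21, limma adjusted p = 0.053) and the replicate block (-0.21, limma adjusted p = 0.066), and ran from -0.24 to -0.17 with 1 library left out. Sqle was no longer called with totals (-0.054) and quantile normalization (-0.14), and ran from -0.25 to -0.19 with 1 library left out. Fdft1, never called, ran from -0.057 to 0.069 with 1 library left out, below 0 without bKO replicate 2 or control replicate 2. The replicate block changed the call of no other gene among the 8. Same-numbered libraries did not deviate together (correlations of -0.07 to -0.01 across genes, against -0.02 to 0.06 for other pairs). With 3 libraries a group, these values cannot show whether same-numbered samples were handled together. Over the alternatives, falls numbered 3 to 6 among the other sterol enzymes (5 as reported), 0 to 6 in SREBP processing (4), 2 to 7 in uptake and transport (7), 0 to 3 in LXR and efflux (0), 6 to 9 in fatty acid synthesis (8) and 0 to 1 in the isoprenoid branches (0). Rises numbered 1 to 4 in uptake and transport (2), 0 to 3 in LXR and efflux (1), 0 to 1 in fatty acid synthesis (1) and 0 to 2 in the isoprenoid branches (0). The causes were not tested. Idi1 rests on the fewest reads of the 8 genes, 187 to 197 in bKO and 259 to 312 in control.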
